A study of Homo sapiens with 6 samples.

Results

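The E2F transcription factors and the retinoblastoma (RB) pocket proteins were taken from the deposited table by symbol, and all 10 listed genes were present among its 16834 genes. They are the activators E2F1, E2F2 and E2F3, the repressors E2F4, E2F5 and E2F6, the atypical repressors E2F7 and E2F8, and the pocket proteins RB1 and RBL1. Asynchronous HEK293-T Flp-In cells gave 3 Flag-IPs and 3 HA-IPs, and the RNA recovered in each was sequenced after poly(A) selection. All 6 libraries come from the same human embryonic kidney line, which carries 1 inserted copy of the CAG-driven ccTaggedRP construct. This construct encodes mouse RPL10a as 2 tagged proteins, Flag-RPL10a-hCdt with a fragment of human CDT1 and HA-RPL10a-hGem with a fragment of human Geminin, so both tagged ribosomal proteins are made in every cell and are removed by their degrons at different phases. Flag-RPL10a-hCdt is designed to be lost from late S through G2 and M phase, and HA-RPL10a-hGem from late G1 through early S phase. The comparison of the HA-IPs with the Flag-IPs is therefore meant to ask which mRNAs were bound by ribosomes of later against earlier cell cycle phases. The paper cautions that being built into ribosomes could slow the loss of the tagged proteins. A single cell line with 1 insertion stands behind every value, the labels do not say whether libraries of 1 tag came from separate cultures, and p-values measure only the spread between these libraries.

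E2F proteins bind DNA, mostly as dimers with a DP protein, at the promoters of genes for DNA replication, nucleotide supply and cell cycle control. In early G1 the pocket proteins hold E2Fs and silence these promoters. Cyclin-dependent kinases phosphorylate the pocket proteins in late G1, activator E2Fs are released, and transcription for S phase begins. E2F7 and E2F8 bind without a DP partner and switch the same genes off later in the cycle. HEK293T cells carry the adenovirus E1A and SV40 large T proteins, both of which bind pocket proteins and free E2Fs from them.

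Several family genes are themselves known targets of E2F, so their promoters were searched for the E2F site, written as TTTCCCGC, TTTCGCGC, TTTGCCGC or TTTGGCGC on either strand. The windows run from 250 bases before to 50 bases after a RefSeq start (GRCh38.p14), and 8 of the 10 genes were used. The site was found in 4 of these 8 genes, namely E2F1, E2F2, E2F3 and RBL1, against 6.51% of the table's genes with a window and 3.31% of all windows. The 4 stretches shown are the 40 bases around each site on the gene's own strand, all upstream of the start, with the matching letters in capitals. Matches on opposite strands can overlap, and a window counted once however many it held.
E2F1 (chr20:33686395-33686434, minus strand): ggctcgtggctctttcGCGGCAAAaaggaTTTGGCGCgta
RBL1 (chr20:37096000-37096039, minus strand): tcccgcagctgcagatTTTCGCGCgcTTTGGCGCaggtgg
E2F2 (chr1:23531252-23531291, minus strand): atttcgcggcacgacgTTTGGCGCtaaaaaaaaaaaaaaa
E2F3 (chr6:20401810-20401849, plus strand): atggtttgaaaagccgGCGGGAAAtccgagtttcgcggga
E2F1 and RBL1 each had 2 sites, close together and within 33 bases of the start. The single sites of E2F2 and E2F3 began 42 and 53 bases before the start, and in E2F3 the site lay in 1 of its 2 windows. No match was found in the windows of E2F4, E2F6, E2F7 and RB1, of which the RB1 window lies inside the gene, and this says only that these letters are not there.

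The libraries held between 23174532 and 44134833 reads on all 16834 genes of the deposited table. The values are normalized counts, which are reads divided by a size factor per library, and a positive log2 fold change, on the scale of log2(normalized count + 1), marks a gene with a higher level in the HA-IPs. A gene is called when its limma p-value, adjusted by Benjamini-Hochberg over all 16834 genes, is at most 0.05. By this rule 12.9% of all genes were called, with 5.79% toward the HA-IPs and 7.10% toward the Flag-IPs, and the groups did not overlap in 32.2%. The HA-IPs had the higher value in 44.9% of all calls, and in 23% when every library was scaled to the same total, which moved the median of all genes from -0.0049 to -0.057. Of the 8 HEK293T markers, all in the table, EPCAM and CDH1 were called higher in the HA-IPs (0.34 and 0.29 on the log2 scale) and PAX2 and PAX8 in the Flag-IPs (-0.79 and -3.57), while KRT8, KRT18, VIM and CDH2 were not called. The kidney factor PAX8 lay between 24.9 and 44.2 in the Flag-IPs and between 0 and 4.41 in the HA-IPs. Heart muscle genes were also found, with 16 of 20 listed markers in the table and all 16 called higher in the Flag-IPs. Their summed level ran from 100360 to 210940 in the Flag-IPs, and from 1878 to 19618 for HA. All 5 fibroblast markers in the table, of 6 listed, were called higher in the Flag-IPs (summed 4644 to 7257 against 1311 to 1903). Of the 6 endothelial markers 4 were in the table, from which PECAM1 and CDH5 were absent. Of these 4, 2 were called higher in the Flag-IPs (summed 376 to 453 against 286 to 307). The part of these markers in the results that follow was not tested. In bulk RNA, fewer cells of a type and less RNA per cell cannot be told apart. All 6 libraries are labeled as the same line, and the source of the heart, fibroblast and endothelial RNA was not tested.

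None of the 10 E2F and RB family genes was called between the HA-IPs and the Flag-IPs, against a background of 12.9%. In limma 1 of them, E2F8, had an unadjusted p below 0.05, as did 4587 of all 16834 genes. For the family, edgeR and DESeq2 on the recovered reads also gave 0 calls and 1 gene with such a p. The mean was higher in the HA-IPs for 8 genes and higher in the Flag-IPs for 2, with a median log2 fold change of 0.051, but E2F2, E2F4, E2F6 and E2F7 changed direction when libraries were scaled to the same total, where the median was -0.0023. RBL1 was the 1 gene whose groups did not overlap (10% of the family against 32.2% of all genes). The fewest reads behind any value of the family was 294. Counting error at the lowest reads was between 2.03% and 5.83%, while the coefficient of variation ran from 3.45% to 12.4% in the Flag-IPs and from 1.57% to 9.78% in the HA-IPs, so counting error was not small beside the spread for every gene. Among the 7249 genes whose mean lay in the range of the family, from 338.3 to 3372 normalized counts, 12.9% were called. The called genes at this level had a median absolute log2 fold change of 0.29 and a smallest of 0.16.

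**Figure D1:**
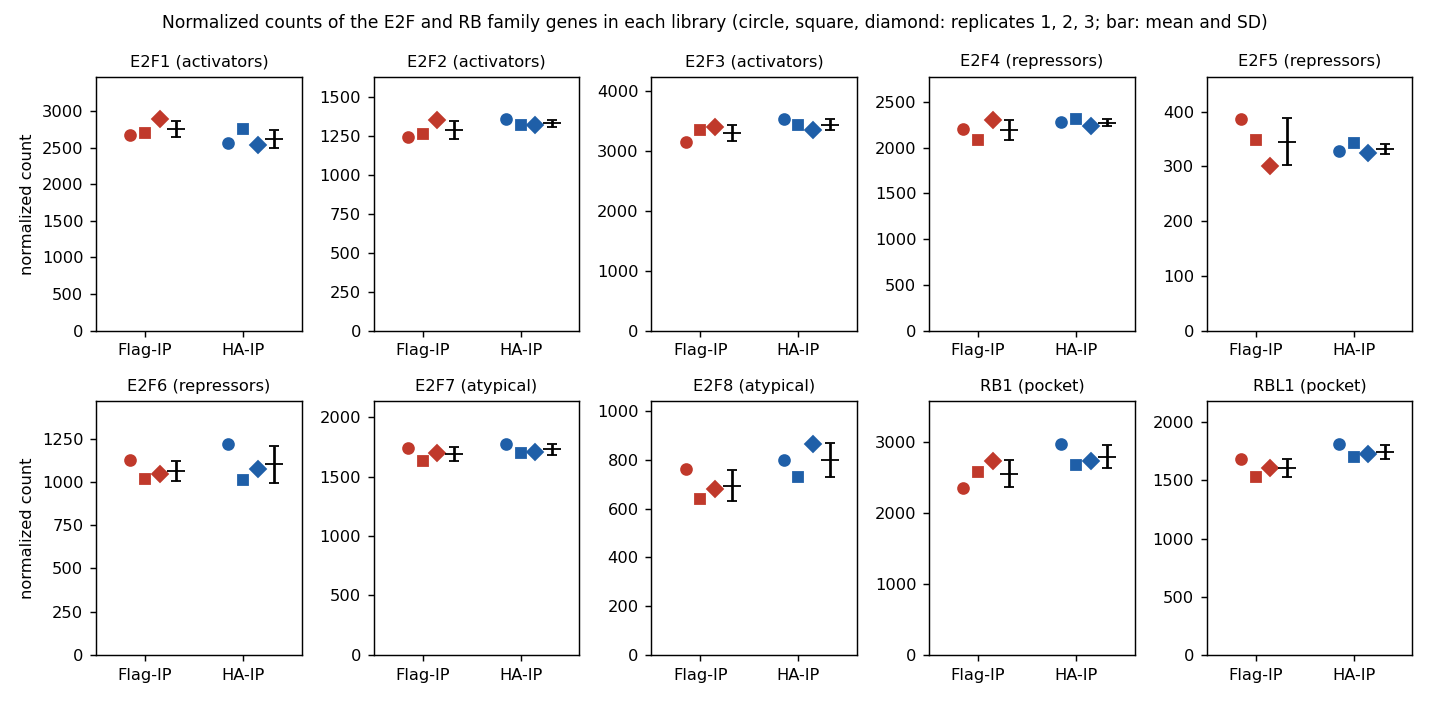
Normalized counts (vertical axes, from 0) of each family gene in the 3 Flag-IPs (red) and 3 HA-IPs (blue), with the symbol giving the replicate and the black bar the mean and SD of each group. The groups overlap in all panels except RBL1, where the lowest HA-IP (1700) lies just above the highest Flag-IP (1688).

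The activators E2F1, E2F2 and E2F3 drive entry into S phase, and none of them was called. E2F1 (ENSG00000101412) lies on the minus strand of chromosome 20 from 33675477 to 33686385 (GRCh38). It had 2677, 2707 and 2888 normalized counts in Flag-IPs 1, 2 and 3 and 2568, 2762 and 2536 in HA-IPs 1, 2 and 3. The third Flag-IP was the highest library and the HA-IPs ran on both sides of the lower Flag-IPs. Its log2 fold change was -0.073 with a standard error of 0.055 (limma adjusted p = 0.45), a change of -4.92% with a 95% interval from -12.6% to 3.44%. E2F2 (ENSG00000007968; chromosome 1, 23506438 to 23531233, minus strand) had 1247, 1262 and 1356 in the Flag-IPs against 1357, 1318 and 1320 in the HA-IPs. The HA-IPs were close together at the upper end of the Flag-IP range, and the third Flag-IP stood among them. The change was 3.43%, with an interval from -5.39% to 13.1% (limma adjusted p = 0.65). E2F3 (ENSG00000112242; chromosome 6, 20401879 to 20493714, plus strand) had 3149, 3351 and 3408 in the Flag-IPs against 3527, 3441 and 3354 in the HA-IPs. The first HA-IP was the highest library and the first Flag-IP the lowest, and the other four libraries lay between them. E2F3 changed by 4.22%, with an interval from -3.53% to 12.6% (limma adjusted p = 0.50). E2F3 has processed pseudogenes in the annotation, as do E2F4 and E2F6, so the counting could share their reads.

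The repressors E2F4 and E2F5 silence target genes together with pocket proteins in resting and early G1 cells, and E2F6 acts without pocket proteins, in Polycomb-like complexes. E2F4 (ENSG00000205250; chromosome 16, 67192155 to 67198918, plus strand) had 2204, 2079 and 2299 in the Flag-IPs against 2276, 2308 and 2236 in the HA-IPs. The spread of the Flag-IPs covered nearly the whole HA-IP range, and the change was 3.7% (interval from -4.53% to 12.6%, limma adjusted p = 0.59). E2F5 (ENSG00000133740), on chromosome 8, was the lowest member with 386, 349 and 301 in the Flag-IPs against 329, 342 and 324 in the HA-IPs. All HA-IPs lay inside the Flag-IP range. The log2 fold change was -0.050 (interval from -0.28 to 0.18, limma adjusted p = 0.81), the widest interval of the family. E2F5 shares 997 exonic bases with RBIS on the opposite strand, and because the use of strand in the counting is not stated in the sources used here, its counts are uncertain. RBIS itself had a log2 fold change of -0.24 (limma adjusted p = 0.33). E2F6 (ENSG00000169016; chromosome 2, 11444375 to 11466177, minus strand) had 1126, 1018 and 1044 in the Flag-IPs against 1220, 1010 and 1073 in the HA-IPs. Here the HA-IPs held both the highest and the lowest library, and the change of 3.39% (interval from -8.19% to 16.4%) did not pass the test (limma adjusted p = 0.75).

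The atypical pair showed the smallest and the largest absolute fold change of the family. E2F7 (ENSG00000165891; chromosome 12, 77021248 to 77065569, minus strand) had 1743, 1627 and 1696 in the Flag-IPs against 1776, 1701 and 1706 in the HA-IPs. HA-IPs 2 and 3 lay between the Flag-IPs, and the log2 fold change was 0.033 (interval from -0.086 to 0.15, limma adjusted p = 0.75). E2F8 (ENSG00000129173; chromosome 11, 19224063 to 19241620, minus strand) had 764, 639 and 682 in the Flag-IPs against 802, 729 and 867 in the HA-IPs. HA-IPs 1 and 3 were above every Flag-IP, and the second HA-IP was below the first Flag-IP. Its log2 fold change of 0.20 with a standard error of 0.088 corresponded to 15%, with an interval from 0.569% to 31.5%. The unadjusted p was 0.042 and the adjusted p was 0.16 from limma, so E2F8 was not called. Without Flag-IP replicate 1, the highest of the Flag-IPs for this gene, the log2 fold change was 0.27 and E2F8 was called (limma adjusted p = 0.048), and it was called in none of the other 16 alternatives.

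Both pocket proteins had higher means in the HA-IPs, and neither was called. RB1 (ENSG00000139687; chromosome 13, 48303744 to 48599436, plus strand), the retinoblastoma tumor suppressor, had 2361, 2580 and 2736 in the Flag-IPs against 2980, 2680 and 2729 in the HA-IPs. The first HA-IP was the highest library and the first Flag-IP the lowest, and the third Flag-IP was above the lower pair of HA-IPs. The log2 fold change was 0.13 with a standard error of 0.065 (interval from -0.014 to 0.27, limma adjusted p = 0.23). RBL1 (ENSG00000080839; chromosome 20, 36996349 to 37095997, minus strand), which encodes the pocket protein p107, had 1688, 1530 and 1606 in the Flag-IPs against 1816, 1700 and 1726 in the HA-IPs. Every HA-IP was above every Flag-IP, although the closest libraries differed by less than the spread within either group. RBL1 changed by 0.12 on the log2 scale with a standard error of 0.059 (interval from -0.0084 to 0.25, limma adjusted p = 0.21). RBL1 shares 213 exonic bases with an antisense long noncoding RNA that was not analysed here.

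**Figure D2:**
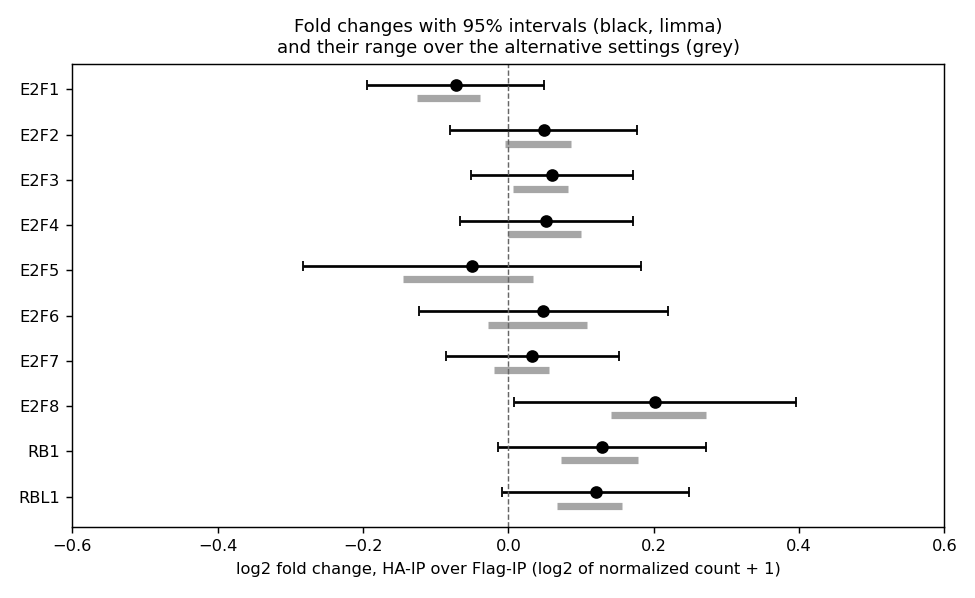
Log2 fold changes, HA-IP over Flag-IP (horizontal axis), for each family gene, with black points and bars for the limma estimate and its 95% interval and grey bars for the range over 17 alternative settings. The interval of E2F8 alone excludes 0, from 0.0082 to 0.40, and the grey bars of E2F2, E2F4, E2F5, E2F6 and E2F7 reach both sides of 0.

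Levels were compared between family genes as normalized counts per kilobase of the canonical transcript. E2F4 was the most abundant with a mean level of 1058 per kilobase over the 6 libraries (985 to 1094), followed by E2F1 with 1000 (943 to 1074). These were above the level of 87.9% and 87% of the table's genes, respectively. E2F3 followed with a level of 670 and RB1 with 562 per kilobase. E2F6, E2F7 and RBL1 had levels of 335, 298 and 295, and E2F2, E2F8 and E2F5 had 252, 202 and 172 per kilobase. E2F5 was close to the middle of all genes, above 51.7% of them. Over the 6 libraries the ranges of neighbours in this order overlapped for E2F4 with E2F1, E2F7 with RBL1, and E2F8 with E2F5. In the HA-IPs alone E2F4 (1060 to 1094) was above E2F1 (943 to 1027), and E2F8 (197 to 234) above E2F5 (165 to 174). In the Flag-IPs alone both of these pairs overlapped. E2F7 was above RBL1 in every Flag-IP and below it in every HA-IP. The ranges of E2F3 and RB1 nearly touched (lowest E2F3 level 625.4, highest RB1 level 625.0), and so did those of E2F6 and E2F7 (312.8 and 310.2). Activators were found in the upper and the lower part of the order, and so were repressors.

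**Figure D3:**
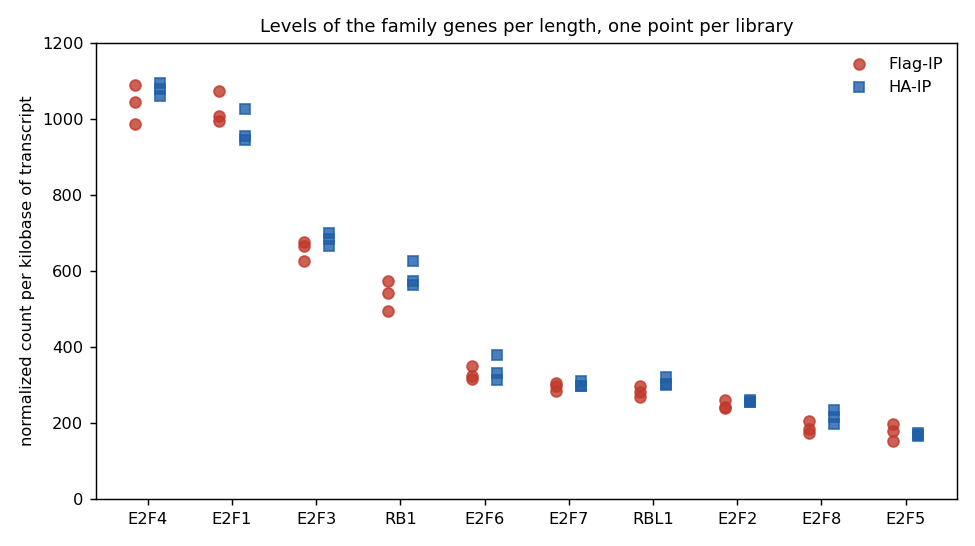
Level of each family gene in normalized counts per kilobase of canonical transcript (vertical axis, from 0), 1 point per library, red circles for Flag-IPs and blue squares for HA-IPs, ordered by the mean. E2F4 and E2F1 lie between 943 and 1094 in every library, and the means of both groups give the same order except for E2F7 and RBL1.

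Genes whose pattern over the 6 libraries was most like that of E2F1 or RB1 were looked up among 11634 genes with a symbol and a mean of at least 100 normalized counts. For E2F1 they were SFXN5, AHDC1 and ARID5A, with Pearson's r of 0.990, 0.976 and 0.974 for the log2 values. For RB1 they were ELOVL4, NIPA2 and SH3BP5L, with r of 0.994, 0.983 and 0.983. Over all candidates 11 genes passed an r of 0.95 with E2F1 and 50 did with RB1. The points are 6 libraries of 2 groups, so these values are a description.

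Genes that E2Fs are known to switch on were read from the same fit. Of 56 textbook E2F targets of G1/S and S phase, all in the table, 20 were called (35.7% against 12.9% of all genes), namely 18 with more in the HA-IPs (32.1% against 5.79%) and 2 with more in the Flag-IPs (3.6% against 7.10%). The median log2 fold change of the 56 was 0.088 beside -0.0049 for all genes, 40 had a higher mean in the HA-IPs, and the groups did not overlap in 29 (51.8% against 32.2%). These shares are set against all genes, not against genes at the level of the targets. The list was chosen with earlier results of these data known. edgeR also called 20 and DESeq2 21. With every library scaled to the same total 15 were called, 13 toward the HA-IPs, and the median of the targets was 0.035 beside -0.057 for all genes. With quantile normalization 14 were called, 11 toward the HA-IPs and 3 toward the Flag-IPs. The median of the targets was then 0.039, not above the 0.044 of all genes, so their higher median depended on the scaling. The count moved with the libraries used, as did that of all genes. Without Flag-IP replicate 1, 2 or 3 it was 19, 4 and 25, beside 2009, 620 and 3059 over all genes, and without HA-IP replicate 1, 2 or 3 it was 8, 10 and 10, beside 780, 900 and 1216. When limma was run with no variance trend 0 were called and 21 had an unadjusted p below 0.05.

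Within the targets, genes that license and fire replication origins were most often called, 9 of 15 (60% against 12.9% of all genes). All 9 were higher in the HA-IPs. MCM2, a subunit of the replicative helicase, had 20159, 21210 and 22475 normalized counts in the Flag-IPs against 25820, 25503 and 25212 in the HA-IPs. The HA-IPs were nearly equal and all above the Flag-IPs, with a log2 fold change of 0.26 (limma adjusted p = 0.0080). CDC6, which loads the helicase, had 6444, 6347 and 6827 in the Flag-IPs against 7641, 7612 and 8400 in the HA-IPs. Its log2 fold change was 0.27 (limma adjusted p = 0.0092), and MCM10, which helps to activate the helicase, was higher by 0.25 (limma adjusted p = 0.010). The 4 GINS genes of the same helicase had fold changes between -0.16 and -0.026 and were not called.

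Repair genes passed the test in 4 of 7 (57.1% against 12.9% of all genes), each with the higher values in the HA-IPs. MSH6, a mismatch repair gene, had 17048, 17706 and 21467 in the Flag-IPs against 23578, 23332 and 24433 in the HA-IPs. The groups did not overlap, and its log2 fold change was 0.35 (limma adjusted p = 0.012). BRCA2, a recombination gene, had 0.25 (limma adjusted p = 0.043). Of the nucleotide supply genes 1 of 6 was called (16.7%, near the share of all genes), RRM1, the large subunit of ribonucleotide reductase. It had 14083, 13404 and 14974 in the Flag-IPs against 18436, 17497 and 18841 in the HA-IPs, which is 0.37 on the log2 scale (limma adjusted p = 0.0019), the largest among the targets higher in the HA-IPs. RRM2, the small subunit of the same enzyme, had 0.047 (limma adjusted p = 0.59). Chromatin and histone supply genes were called in 3 of 7 (42.9%), among them EZH2, the Polycomb methyltransferase, with 0.25 (limma adjusted p = 0.012). Fork polymerase and processing genes were called in 1 of 11 (9.09%, below the share of all genes). This was the catalytic polymerase alpha subunit POLA1 with 0.23 (limma adjusted p = 0.016).

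Among the cyclin, kinase and control genes 2 of 10 were called (20% against 12.9% of all genes), and both were higher in the Flag-IPs. TIPIN, a fork protection factor, had 3071, 3409 and 3284 in the Flag-IPs against 2304, 2563 and 2596 in the HA-IPs, with a log2 fold change of -0.39 (limma adjusted p = 0.0031). MYBL2, a transcription factor that joins the MuvB complex for later cell cycle genes, had 10483, 10660 and 10856 in the Flag-IPs against 8590, 9013 and 9001 in the HA-IPs. Its log2 fold change was -0.27 (limma adjusted p = 0.0041), and the groups of both genes were well apart. The cyclins that open S phase were not called, with 0.058 for CCNE1 and -0.013 for CCNE2 (limma adjusted p = 0.61 and 0.95). SKP2, a ubiquitin ligase subunit that acts on the CDT1 degron, had -0.012 (limma adjusted p = 0.95).

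The E2F site was in 8 of the 15 targets called higher in the HA-IPs that have a promoter window (53.3%) and in 17 of the 33 other targets with one (51.5%), a difference that was not tested. Transcript length moved with the fold changes. Across the 56 targets Spearman's rho between length and log2 fold change was 0.41, and across 16683 genes it was 0.24, where genes are not independent replicates. The median transcript was 3605.5 bases for the 18 targets called higher in the HA-IPs and 2666 bases for the other targets. With the trends in GC content and length removed from every library, 23 targets were called, 21 of them higher in the HA-IPs, while the calls over all genes went from 2171 to 2592, of which 52.4% were higher in the HA-IPs.

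Genes that act with or on E2F and RB proteins were called in 10 of 43 (23.3% against 12.9%), 5 in each direction, with a median log2 fold change of 0.043. The split moved with the scaling, since 1 was called toward the HA-IPs and 6 toward the Flag-IPs with the same total per library, and 3 and 5 with quantile normalization. The DP partners TFDP1 and TFDP2 were not called, at -0.071 and 0.051 (limma adjusted p = 0.37 and 0.74). RBL2, the remaining pocket protein (p130), had 3023, 2911 and 3207 in the Flag-IPs against 3712, 3324 and 3369 in the HA-IPs. The groups did not overlap, but the log2 fold change of 0.19 did not pass (limma adjusted p = 0.062). It was called by DESeq2 and by limma without Flag-IP replicate 3 (adjusted p = 0.024). Without each of the other libraries it was not, the limma adjusted p reaching 0.235.

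Of the kinases that phosphorylate RB, CDK4 was higher in the Flag-IPs, with 4630, 4613 and 4781 against 4078, 3922 and 3964 in the HA-IPs and a log2 fold change of -0.23 (limma adjusted p = 0.0092). CDK6, its close relative, was higher in the HA-IPs by 0.22 (limma adjusted p = 0.030), with 2009, 1956 and 1896 in the Flag-IPs against 2417, 2223 and 2179 in the HA-IPs. CDK2, the cyclin E and A kinase, was higher in the HA-IPs by 0.17 (limma adjusted p = 0.042). With the same total per library CDK6 and CDK2 were no longer called (limma adjusted p = 0.11 and 0.15) and CDK4 was (0.0028), and CDK2 also lost its call with quantile normalization (limma adjusted p = 0.0997). The D cyclins that bind CDK4 and CDK6 were not called, at 0.010 for CCND1 and 0.019 for CCND3 (limma adjusted p = 0.93 and 0.88). Of the CDK inhibitors 1 of 7 was called (14.3%, near the 12.9% of all genes). This was CDKN1A (p21), with 2106, 2109 and 2029 in the Flag-IPs against 1662, 1711 and 1526 in the HA-IPs. Its log2 fold change was -0.35 (limma adjusted p = 0.0039).

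Of the E2F6 complex 1 of 7 genes was called (14.3%, near the 12.9% of all genes) and of DREAM and MuvB 2 of 7 (28.6%). All were toward the Flag-IPs, where 7.10% of all genes were called. MGA of the first and RBBP4 of the second had values in the other direction without overlap, at 0.17 and 0.14 (limma adjusted p = 0.059 and 0.092). RNF2, the ubiquitin ligase subunit found with E2F6, had 669, 597 and 570 in the Flag-IPs against 449, 443 and 404 in the HA-IPs, which is -0.50 on the log2 scale (limma adjusted p = 0.0050) and the largest decrease of both lists. LIN52, the subunit that links MuvB to p107 and p130 in the DREAM complex, had -0.39 (limma adjusted p = 0.024). The other called genes, with more in the HA-IPs, were KDM5A, a histone demethylase that binds RB, with 0.20, and CDC20 and FZR1, activators of the anaphase promoting complex, with 0.23 and 0.19 (limma adjusted p = 0.038, 0.0084 and 0.027).

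The calls of partners moved with the libraries too. There were 10 calls without Flag-IP replicate 1, 4 without Flag-IP replicate 2 or without HA-IP replicate 2, 5 and 6 without HA-IP replicate 1 and 3, and 16 without Flag-IP replicate 3. Of the called genes named by the rule for both lists, RRM1, TIPIN, MYBL2, RNF2 and CDKN1A were called whichever library was left out. Without Flag-IP replicate 2, 12 were no longer called (MSH6, CDC6, MCM2, MCM10, BRCA2, EZH2, CDC20, CDK6, KDM5A, FZR1, CDK2 and LIN52). Without HA-IP replicate 1, 9 were not (MSH6, MCM10, BRCA2, EZH2, CDK6, KDM5A, FZR1, CDK2 and LIN52). Without HA-IP replicate 2, 8 were not (MSH6, BRCA2, CDK6, KDM5A, FZR1, CDK2, LIN52 and CDK4), and without HA-IP replicate 3, 7 were not (MSH6, MCM10, BRCA2, KDM5A, FZR1, CDK2 and LIN52). Without Flag-IP replicate 1, BRCA2 and KDM5A lost their calls, and without Flag-IP replicate 3 CDK2 did. No fold change of these genes reversed under any of the 17 alternatives.

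**Figure D4:**
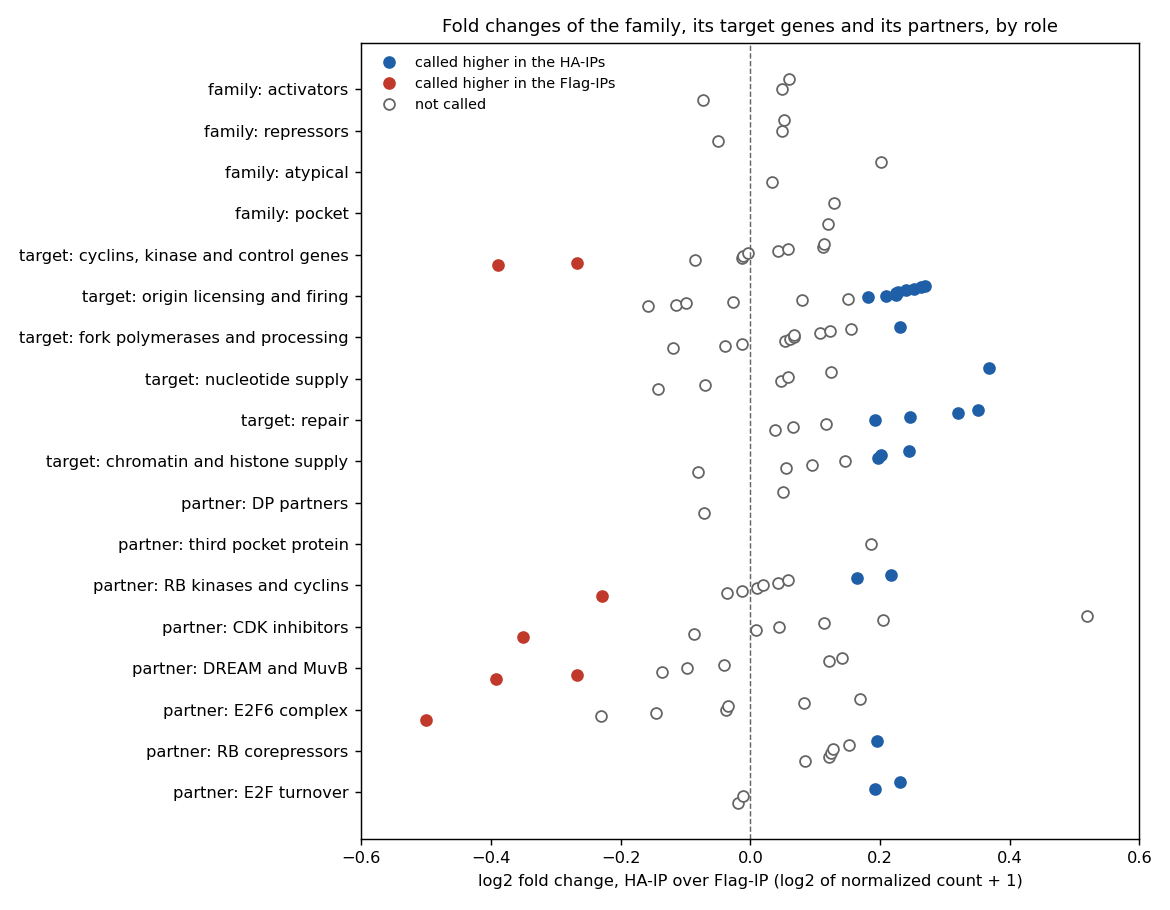
Log2 fold changes, HA-IP over Flag-IP (horizontal axis), for the 10 family genes, the 56 targets and the 43 partners, 1 row per role and 1 point per gene, filled blue where called higher in the HA-IPs, filled red where called higher in the Flag-IPs and open where not called (a gene on both lists, such as MYBL2, is drawn in both). The family rows hold only open points, the rows of origin licensing and repair hold 13 blue points, and red points are in rows of control genes, kinases, inhibitors, DREAM and the E2F6 complex.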

How the data were processed

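The authors trimmed the reads, mapped them to GRCh38, counted them per gene, left out genes with few reads and scaled each library by its size factor. The deposited unit is thus a normalized signal (normalized counts). The submitters' processing notes name Trimmomatic 0.36, STAR 2.5.2b, featureCounts (Subread 1.5.2) and DESeq2, and whether counting used the strand is not given in the sources used here. The log2 fold changes and adjusted p-values of the authors' own comparison, also deposited, were not used. All values were whole multiples of what 1 read is worth (100% within 0.01 of a read), so reads were recovered. A pseudocount of 1 was added, log2 taken, and all 16834 genes were compared in limma 3.58.1 (R 4.3.3) with a mean-variance trend, two-sided, with Benjamini-Hochberg adjustment and no covariate. Alternatives were DESeq2 1.42.0 and the quasi-likelihood test of edgeR 4.0.16 (TMM), both on recovered reads, pseudocounts of 0.1 and 10, a mean of at least 50, other scalings, no trend, the replicate number as a block, GC content and length trends removed (natural splines, 5 degrees of freedom, MASS 7.3.60.0.1), each library left out and an adjusted p of at most 0.01. The fits were tested on simulated data. Annotation and canonical transcripts came from release 44 of GENCODE (GRCh38), where 16683 identifiers were found, and promoters from RefSeq (GRCh38.p14).

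The family members, gene lists and markers were chosen with earlier results of these data known. Named are all members, up to 8 called genes per list and direction by fold change, and CCND1, CCND3, CDK4, CDK6, TFDP1, TFDP2, RBL2, CCNE1, CCNE2, MYBL2 and SKP2. RRM2, the GINS genes, POLA1, MGA, RBBP4 and RBIS were added after their values were seen. A gene that this rule names is not reported here.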

Additional observations from a re-analysis of the deposited data

How the results depend on the processing

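Of the family, E2F1, E2F3, RB1 and RBL1 kept their direction and stayed uncalled under all 17 alternatives. With libraries scaled to the same total the log2 fold changes of E2F2, E2F4, E2F6 and E2F7 turned to -0.0042, -0.00048, -0.0047 and -0.020, and those of CCND1, CCND3 and TFDP2 to -0.043, -0.034 and -0.0023, following the shift of the median of all genes. E2F5, CCND1 and CCNE2 turned to 0.0078, -0.036 and 0.042 with quantile normalization, and to 0.0026, -0.0065 and 0.053 with GC content and length trends removed. None of these was called in any setting, and the cause was not tested. With each library left out in turn, E2F5 ran from -0.15 to 0.034, E2F6 from -0.028 to 0.11, CCND1 from -0.029 to 0.035, CCNE2 from -0.061 to 0.077 and SKP2 from -0.10 to 0.075.

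The genes called fell from 2171 to 188 without the trend of the variance, with 0 targets and 0 partners (the cause was not tested), and to 704, with 6 targets and 5 partners, at an adjusted p of at most 0.01. With each library left out in turn the counts ran from 620 to 3059 for all genes, from 0 to 1 for the family, from 4 to 25 for targets and from 4 to 16 for partners. These fits use fewer libraries. Calls of named genes were also lost by BRCA2, CDK6, KDM5A, FZR1 and CDK2 with the same total per library, by MCM2, BRCA2, KDM5A and CDK2 with quantile normalization, and by BRCA2, KDM5A and FZR1 with GC content and length trends removed.

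Same-numbered libraries did not deviate together (Pearson's r of -0.16, 0.031 and -0.31 over 13141 genes). Deviations within so small a group depend on each other, so these values cannot decide whether the replicate number pairs the libraries. With the replicate block 1662 genes, 0 family genes, 17 targets and 8 partners were called. BRCA2, FZR1 and CDK2 lost their calls there. Counting error at the lowest reads of any library (2.03% to 5.83%) was above the coefficient of variation of the HA-IPs for E2F2, E2F4, E2F5 and E2F7. Whether depth bears on these genes was not tested. For E2F2, E2F4 and E2F7 the lowest reads (960, 1697 and 1342) were those of Flag-IP replicate 1, not of an HA-IP.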
